A study of Mus musculus with 6 samples.

Results

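The genes described here are 9 genes of tissue that adjoins the hippocampus, measured in the hippocampi of ORAI1-overexpressing mice and their controls. They are Tcf7l2, Lef1, Prkcd, Rgs16, Ramp3, Slc17a6 and Synpo2, known from thalamic neurons, and Zic1 and Zic4, known from the septum. They were listed as genes of thalamus, habenula or septum and looked up by gene symbol, and all 9 of 9 were found among the 54838 genes of the deposited count table. All 9 passed the filter on low counts.

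RNAseq libraries were made from whole hippocampi of females aged 7 months, 1 library per mouse. There were 3 wild-type mice and 3 mice of the line that the labels spell FVB/NJ-Tg(Orai1)Ibd, called transgenic below. The transgenic mice carry a human ORAI1 coding sequence in the Thy1.2 cassette, which drives expression in neurons, and no agent was given to either group in the sources used here. The labels do not give the strain of the wild-type mice. Nothing in the sources used here says which brain regions other than the hippocampus came along in a dissection.

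The thalamus and its dorsal neighbour, the habenula, lie beneath the hippocampus, and the septum lies in front of it, joined to it by the fornix. Thalamic relay neurons are glutamatergic and load their vesicles with VGLUT2, whereas most hippocampal pyramidal neurons use VGLUT1. The transcription factors that specify these regions in the embryo often stay on in the adult neurons, so that genes such as Tcf7l2 and Zic1 are read as regional labels. None of the 9 genes is restricted to these regions. Tcf7l2 is also known from newly formed oligodendrocytes, Lef1 from endothelium, Synpo2 from smooth muscle and the Zic genes from the meninges.

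In the GRCm38 annotation the 9 genes lay on 7 chromosomes. Tcf7l2 (ENSMUSG00000024985) spanned chr19:55741810-55933654 on the plus strand and Lef1 (ENSMUSG00000027985) spanned chr3:131110471-131224356 on the plus strand. Prkcd (ENSMUSG00000021948) spanned chr14:30595354-30626210 on the minus strand and Slc17a6 (ENSMUSG00000030500) spanned chr7:51622006-51671119 on the plus strand. Rgs16 (ENSMUSG00000026475) was at chr1:153740349-153745468 on the plus strand and Ramp3 (ENSMUSG00000041046) was at chr11:6658521-6677475 on the plus strand. Synpo2 (ENSMUSG00000050315) was at chr3:123076519-123236149 on the minus strand. Zic1 (ENSMUSG00000032368) was at chr9:91358058-91365810 on the minus strand, and Zic4 (ENSMUSG00000036972) was at chr9:91362413-91389348 on the plus strand. Zic1 and Zic4 thus overlapped by 3398 bp on opposite strands. Counting kept the strand, so reads of the overlap were assigned by their orientation.

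Because Zic1 and Zic4 had the largest genotype differences of the 9 genes, their promoters are shown. RefSeq (GRCm38.p6) put their transcription start sites 3204 bp apart, pointing away from each other. The 250 bases before each start site are written 5′ to 3′ on the strand of the gene, with CCAAT boxes and GC boxes (GGGCGG) found on either strand in capitals. The Zic1 window was chr9:91365769-91366018 on the minus strand and the Zic4 window was chr9:91368722-91368971 on the plus strand.
Zic1: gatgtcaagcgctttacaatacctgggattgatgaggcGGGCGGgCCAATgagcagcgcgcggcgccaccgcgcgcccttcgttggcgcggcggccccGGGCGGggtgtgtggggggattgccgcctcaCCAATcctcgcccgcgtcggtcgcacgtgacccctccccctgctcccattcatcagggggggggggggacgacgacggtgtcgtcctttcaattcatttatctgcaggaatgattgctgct
Zic4: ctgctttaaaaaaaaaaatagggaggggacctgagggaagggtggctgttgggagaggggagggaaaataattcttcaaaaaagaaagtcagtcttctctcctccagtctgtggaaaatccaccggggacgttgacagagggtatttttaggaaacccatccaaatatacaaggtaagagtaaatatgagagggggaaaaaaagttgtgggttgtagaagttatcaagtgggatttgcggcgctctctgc
The Zic1 window held 2 CCAAT and 2 GGGCGG motifs and had a GC content of 66%. The Zic4 window held none of these letters and had a GC content of 44.4%. For all 9 genes RefSeq gave 15 windows, since some genes have several start sites. GGGCGG was in 10 of these 15 windows and in 32.7% of all 32851 promoter windows of the same length. CCAAT was in 3 of 15 windows and in 33.8% of all windows, and TATAAA was in 4 of 15 and in 12.4%. The core letters bound by TCF and LEF factors, CTTTGAT, were in 0 of 15 windows and in 3.21% of all windows, whereas the related CTTTGTT was in 2 of 15 windows, of Prkcd and Tcf7l2, and in 5.03% of all windows. Such matches describe the sequence only.

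Total counts lay between 37414241 and 52497799 per library, with 27237 to 28352 genes detected. Counts on mouse Orai1 were 302 to 376 in wild-type and 11834 to 14620 in transgenic libraries, as the labels give them. Reads of the human ORAI1 sequence and of the mouse gene were not told apart there. Thy1, the gene the cassette derives from, was higher in transgenic mice by a log2 fold change of 2.66. All 10 hippocampal markers were detected in each library, led by Neurod6 with 90.9 ± 0.949 FPKM (SD, n = 3) in wild-type and 82.4 ± 6.86 FPKM (SD, n = 3) in transgenic mice. None of the 10 was called between genotypes with edgeR's quasi-likelihood test. FPKM here are fragments scaled to gene length and to the total of the library, which allows levels of different genes to be set side by side.

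One library stood apart in genes of neighbouring tissue. As the heat map of marker lists shows, wild-type mouse 2 had more RNA of habenula and striatum genes than any other mouse. The summed level of 5 habenula genes was 11.8 FPKM in this library and 2.88 to 3.47 FPKM in the other 5 libraries. The summed level of 6 striatum genes was 36.8 FPKM in this library and 6.11 to 10.9 FPKM in the others. All 5 habenula genes, all 6 striatum genes and 5 of 7 septum genes were highest in this mouse, but Drd1, the striatum gene with the highest level, did not stand apart (4.69 FPKM in this mouse and in transgenic mouse 3, and 4.24 FPKM in wild-type mouse 3). Examples, chosen after their values were seen, are Pou4f1, a transcription factor of habenular neurons, with 160 counts against 7 to 11, and Adora2a, a receptor of striatal neurons, with 652 counts against 56 to 85. Chat, which makes acetylcholine in septal and other cholinergic neurons, had 82 counts against 2 to 10. For Zic1, Zic4, Slc17a6, Tcf7l2 and the habenula, septum and striatum lists, values are given with and without this library.

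**Figure D1:**
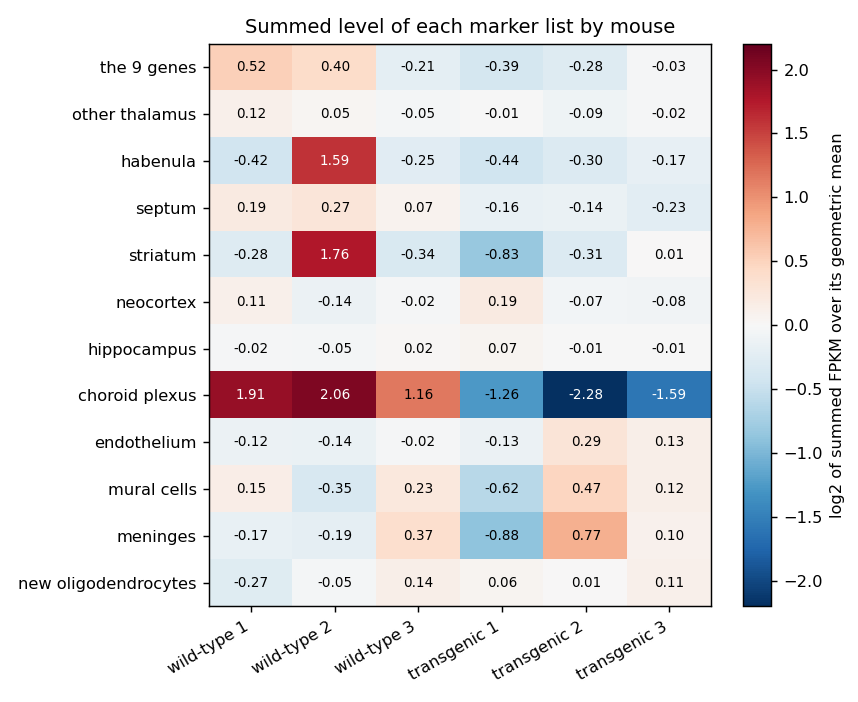
Summed FPKM of the 9 genes and of 11 marker lists in each mouse (columns), as the log2 of the sum over its geometric mean across the 6 mice (colour and number). Habenula and striatum lists are high in wild-type mouse 2 alone (1.59 and 1.76), the choroid plexus list is high in all 3 wild-type mice, and the 9 genes are highest in wild-type mice 1 and 2 (0.52 and 0.40).

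In wild-type mice the 9 genes ranged over more than an order of magnitude. Zic1 had the highest mean level with 9.41 ± 3.00 FPKM (SD, n = 3), followed by Prkcd with 7.24 ± 3.22 and Slc17a6 with 3.65 ± 0.837 FPKM. Rgs16 had 2.82 ± 0.109, Zic4 1.51 ± 0.380 and Ramp3 1.36 ± 0.188 FPKM. Synpo2 with 0.915 ± 0.0517, Tcf7l2 with 0.813 ± 0.134 and Lef1 with 0.702 ± 0.0735 FPKM stood at the low end. The ranges of neighbours in this order were separate for Slc17a6 and Rgs16, Rgs16 and Zic4, and Ramp3 and Synpo2, and they overlapped for the other neighbours. In transgenic mice the order began with Prkcd (4.91 ± 1.03 FPKM), Zic1 (4.69 ± 1.66), Rgs16 (3.22 ± 0.406) and Slc17a6 (2.38 ± 0.501). It went on with Ramp3 (1.58 ± 0.221), Synpo2 (0.925 ± 0.185), Tcf7l2 (0.848 ± 0.217), Zic4 (0.798 ± 0.241) and Lef1 (0.762 ± 0.175). There the ranges of neighbours were separate for Slc17a6 and Ramp3 and for Ramp3 and Synpo2. Zic4 thus took the fifth place in wild-type and the eighth in transgenic mice.

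**Figure D2:**
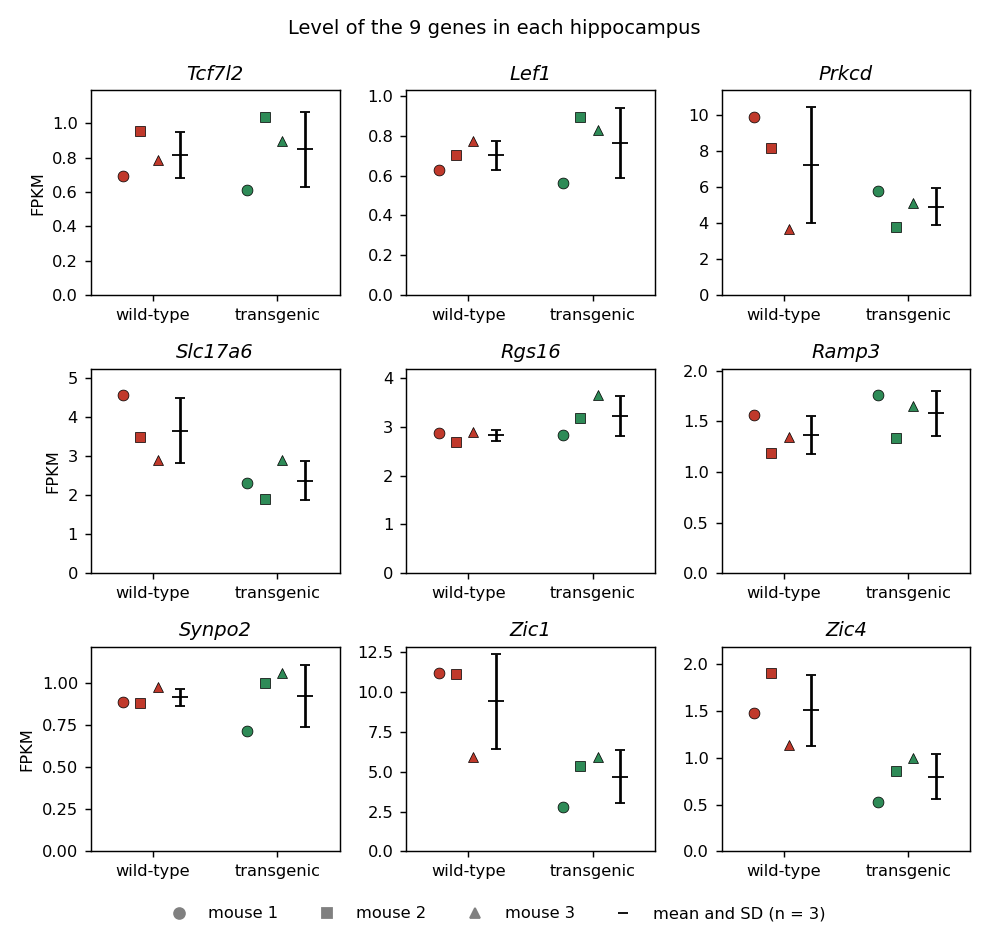
Level of each of the 9 genes (FPKM, vertical axes from 0) in each hippocampus, with wild-type mice in red and transgenic mice in green, and the mean and SD of 3 mice in black. The groups are apart for Zic1 and Zic4, and for Slc17a6 the nearest mice of both genotypes are almost level (2.91 FPKM in both), and Prkcd spreads from 3.65 to 9.89 FPKM among wild-type mice.

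Between genotypes, none of the 9 genes passed an adjusted p of 0.05 with edgeR's quasi-likelihood test, against 7.10% of the 19087 genes tested. At an unadjusted p under 0.05, 3 of the 9 were lower in transgenic mice (Zic1, Zic4 and Slc17a6) and 0 were higher, while 27.8% of all genes tested passed this level and 14.8% were lower. The estimates for these 3 genes were log2 fold changes of -1.01 to -0.62, and Prkcd had an estimate of -0.56 with overlapping groups. For the other 5 genes the estimates lay between 0.02 and 0.21. Over the 9 genes the median log2 fold change was 0.02, beside a median of -0.01 over all genes tested. With 3 mice per genotype an exact permutation test on any gene alone reaches no two-sided p smaller than 0.1. In RNA of whole tissue, fewer cells of a type and less RNA per cell cannot be told apart.

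**Figure D3:**
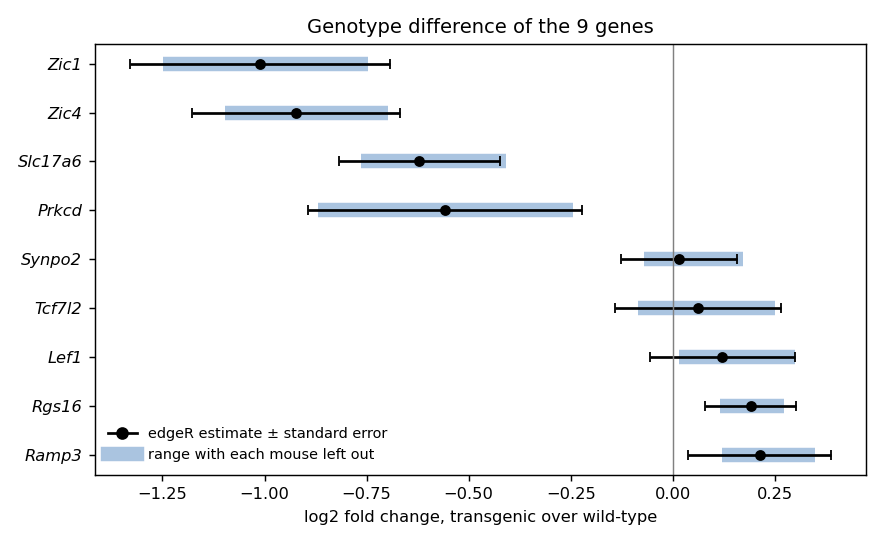
Log2 fold change of transgenic over wild-type mice for each of the 9 genes (horizontal axis), with the estimate and standard error of edgeR in black and the range of the 6 fits that leave out 1 mouse each in blue. Zic1, Zic4, Slc17a6 and Prkcd stay below 0 in all 6 fits, whereas Tcf7l2 and Synpo2 lie on both sides of 0.

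The Zic genes encode zinc-finger transcription factors, which in the forebrain mark the septum and its surroundings and are also known from meningeal cells. Zic1 had 11.2, 11.1 and 5.95 FPKM in the wild-type mice and 2.80, 5.37 and 5.90 FPKM in the transgenic mice. All 3 wild-type mice were above all 3 transgenic mice, but wild-type mouse 3 and transgenic mouse 3 almost met. For Zic1 the log2 fold change was -1.01 with a standard error of 0.32 and an adjusted p of 0.0928 in edgeR's quasi-likelihood test. Zic4, the neighbour of Zic1 on the chromosome, had 1.48, 1.90 and 1.14 FPKM in the wild-type and 0.531, 0.864 and 0.998 FPKM in the transgenic mice. Its groups did not overlap either, with transgenic mouse 1 the lowest as for Zic1. For Zic4 the log2 fold change was -0.92 with a standard error of 0.25 and an adjusted p of 0.0674 in edgeR's test. Such separation of the CPM, with the lower values in transgenic mice, was seen in 2 of the 9 genes and in 17.9% of all genes tested. Separation with the higher values in transgenic mice was seen in 0 of the 9 genes and in 16.9% of all genes, which makes 34.9% in either direction. Without wild-type mouse 2 the log2 fold changes were -0.86 for Zic1 and -0.71 for Zic4, with edgeR's adjusted p of 0.238 and 0.193.

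Zic1 and Zic4 kept a similar proportion in all 6 mice. The ratio of their FPKM was 7.55, 5.85 and 5.21 in the wild-type mice and 5.28, 6.22 and 5.91 in the transgenic mice. The overlapping values averaged 6.20 ± 1.21 and 5.80 ± 0.479 (SD, n = 3 each). A similar arrangement holds for Zic2 and Zic5, which also form a pair on one chromosome, and their FPKM ratio was 5.56 to 7.19 over the 6 mice.

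Neither Zic2 nor Zic5 passed edgeR's adjusted p of 0.05, and both estimates were negative. Zic2, the higher of them in level, had 10.1, 10.7 and 7.35 FPKM in wild-type and 5.13, 8.65 and 7.43 FPKM in transgenic mice, with a log2 fold change of -0.41 ± 0.20 (SE) and an adjusted p of 0.236. Its groups overlapped. Zic5 had a log2 fold change of -0.58 ± 0.18 (SE) with groups that did not overlap and an adjusted p of 0.0904. For each of Zic1, Zic2, Zic4 and Zic5 transgenic mouse 1 was the lowest library.

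**Figure D4:**
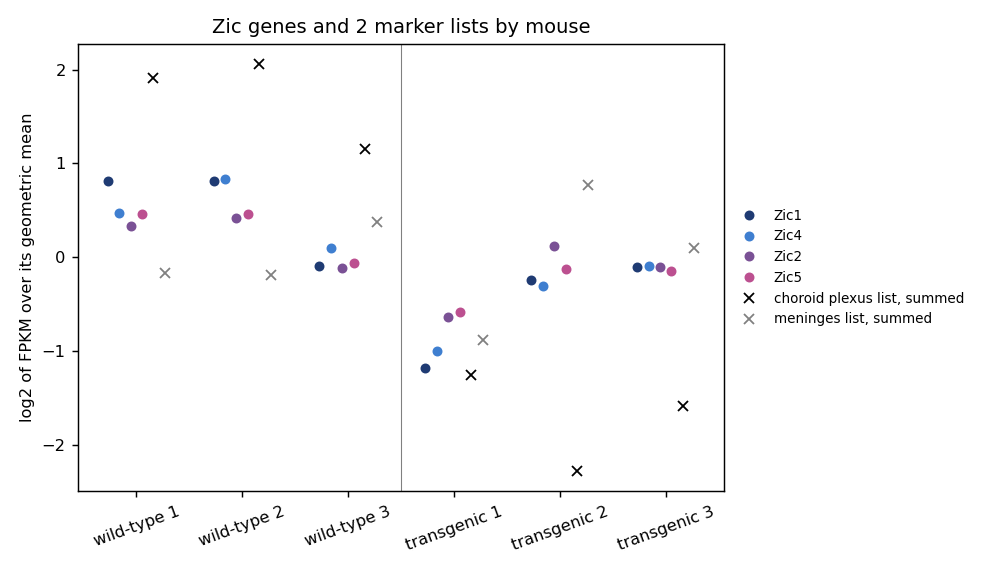
FPKM of 4 Zic genes (dots) and summed FPKM of 16 choroid plexus genes and 7 meningeal genes (crosses) in each mouse, as log2 over the geometric mean of the 6 mice. All 4 genes are lowest in transgenic mouse 1 and higher in wild-type mice 1 and 2 than in wild-type mouse 3, while the meningeal list is lowest in transgenic mouse 1 and highest in transgenic mouse 2 (0.77).

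Beside the Zic genes, markers of the tissues that border the ventricles and the brain surface also varied. The summed level of 16 choroid plexus genes was 3078, 3409 and 1828 FPKM in wild-type and 343, 169 and 273 FPKM in transgenic mice. All 16 were lower in transgenic mice with edgeR's test, as were 764 of the 19087 genes tested, with a median log2 fold change of -2.75. The list was led in level by Ttr, the thyroid hormone carrier of the choroid plexus, with a log2 fold change of -3.45 ± 0.34 (SE) and an adjusted p of 0.0047. Among the 4 genes of the list with the smallest p were Kcnj13 (-2.57), Kcne2 (-3.36) and Slc4a5 (-3.69), which are ion transport genes, and Sostdc1 (-2.05). With 1 mouse left out, Clic6 stayed called in 3 and Calml4 in 2 of the 6 fits (adjusted p up to 0.0626 and 0.121, both without wild-type mouse 1), and the other genes of the list in all 6. The 7 meningeal genes summed to 41.4, 40.8 and 60.1 FPKM in wild-type and 25.2, 79.6 and 49.9 FPKM in transgenic mice, and 0 of 7 were called. Dcn, which encodes a matrix proteoglycan, had the highest level of these 7. Both lists were lowest in one of the transgenic mice, the choroid plexus list in mouse 2 and the meningeal list in mouse 1. Their part in the lower Zic1 and Zic4 levels was not tested.

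Markers of the septum itself differed widely in counts, with 0 to 18 per library for Lhx8 and 1737 to 3276 for Trpc4. Of 7 septum genes 4 passed the filter on low counts and 1 was lower in transgenic mice, beside 764 of all 19087 genes tested. This was Ngfr, a neurotrophin receptor of cholinergic neurons, with 164, 141 and 141 counts against 98, 77 and 83. Its log2 fold change was -0.68 with a standard error of 0.13 and an adjusted p of 0.0312 in edgeR's test, and 0.0507 to 0.125 when 1 mouse was left out. The cation channel gene Trpc4, known from the lateral septum, had the highest level of the list, 7.29 ± 0.423 FPKM in wild-type and 6.12 ± 0.294 FPKM in transgenic mice (SD, n = 3 each), with an adjusted p of 0.0557. The median of the 4 tested genes was -0.47, and -0.31 without wild-type mouse 2. Without the filter on low counts the median of all 7 genes was -1.33. The septal genes of the cholinergic neurons Lhx8, Gbx1 and Chat had at most 10 counts in every library but wild-type mouse 2 and were not tested.

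Slc17a6 encodes VGLUT2, the transporter that fills synaptic vesicles with glutamate in thalamic and other subcortical neurons. It had 4.56, 3.48 and 2.91 FPKM in wild-type and 2.31, 1.91 and 2.91 FPKM in transgenic mice. Wild-type mouse 3 and transgenic mouse 3 had almost the same level, so that the groups were just apart in FPKM and just overlapped in CPM, which uses the scaled totals (15.67 and 15.68 CPM). With edgeR's test Slc17a6 had a log2 fold change of -0.62, a standard error of 0.20 and an adjusted p of 0.0941. Without wild-type mouse 2 it was -0.64, with an adjusted p of 0.200.

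Of the other vesicular glutamate transporters 1 of 2 was called, beside 7.10% of all genes tested. Slc17a7 (VGLUT1), the main transporter of hippocampal pyramidal neurons, had 216, 217 and 224 FPKM in wild-type and 268, 261 and 253 FPKM in transgenic mice. It was higher in transgenic mice with a log2 fold change of 0.26, a standard error of 0.05 and an adjusted p of 0.0356 in edgeR's test, which became 0.0388 to 0.162 with 1 mouse left out and 0.110 with GC offsets at a log2 fold change of 0.18. Slc17a8 (VGLUT3) had 0.757 ± 0.226 FPKM in wild-type and 0.467 ± 0.0352 FPKM in transgenic mice (SD, n = 3 each), with a log2 fold change of -0.69 and an adjusted p of 0.0960. The level of Slc17a7 was thus 47.3, 62.3 and 76.8 times that of Slc17a6 in wild-type and 116, 137 and 86.9 times in transgenic mice.

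Prkcd encodes protein kinase C delta, an isoform activated by diacylglycerol without calcium that is abundant in thalamic relay neurons. It spread more than any other of the 9 genes among wild-type mice, with 9.89, 8.18 and 3.65 FPKM. The transgenic mice had 5.81, 3.79 and 5.14 FPKM, inside the wild-type range. The log2 fold change of -0.56 with a standard error of 0.34 did not pass edgeR's test (adjusted p = 0.322). Without wild-type mouse 3 it was -0.87 with an adjusted p of 0.0450, and without wild-type mouse 1 it was -0.24 with an adjusted p of 0.740, so that 1 wild-type mouse decides whether the gene is called. The ratio of Prkcd to Slc17a6 in FPKM lay between 1.25 and 2.51 over the 6 mice. Among 7 other genes of the kinase family 0 were called with edgeR's test, and their median log2 fold change was -0.14 (-0.06 without wild-type mouse 2). Prkce, the epsilon isoform, was the highest in level of these 7, with 84.3 ± 1.86 FPKM in wild-type and 81.6 ± 1.77 FPKM in transgenic mice (SD, n = 3 each).

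Tcf7l2 and Lef1 encode DNA-binding partners of beta-catenin, the effector of Wnt signalling, and are known from thalamic neurons. Tcf7l2 had 0.695, 0.958 and 0.786 FPKM in wild-type and 0.611, 1.04 and 0.896 FPKM in transgenic mice. The groups overlapped, with the lowest and the highest mouse both transgenic. The log2 fold change was 0.06 with a standard error of 0.20, which gives an interval of 2 standard errors from -0.35 to 0.47 (adjusted p = 0.879 with edgeR). Without wild-type mouse 2 it was 0.21, with an adjusted p of 0.629. Lef1 had 0.629, 0.702 and 0.776 FPKM in wild-type and 0.564, 0.893 and 0.830 FPKM in transgenic mice. Its groups overlapped likewise, and its log2 fold change was 0.12 with a standard error of 0.18 and an interval of 2 standard errors from -0.23 to 0.48 (adjusted p = 0.702 with edgeR).

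The FPKM ratio of Tcf7l2 to Lef1 stayed between 1.01 and 1.37 over the 6 mice. None of 9 further genes of the Wnt pathway was called, and their median log2 fold change was 0.03. Ctnnb1, which encodes beta-catenin, was the highest in level, with 89.3 ± 4.57 FPKM in wild-type and 88.6 ± 8.29 FPKM in transgenic mice (SD, n = 3 each). Newly formed oligodendrocytes and endothelium, which also use these factors, were read from their own markers. None of 6 oligodendrocyte markers was called, with sums of 208, 243 and 277 FPKM in wild-type and 262, 254 and 273 FPKM in transgenic mice. The sum is carried by myelin genes of mature cells such as Mobp, the highest in level. The 3 markers of newly formed cells in the list did not share one order of mice. Enpp6 had 8.98, 9.50 and 20.5 CPM in wild-type and 8.49, 29.2 and 16.4 CPM in transgenic mice. Bcas1 had 152, 164 and 219 CPM against 204, 261 and 190 CPM, and Itpr2 had 29.9, 29.2 and 34.1 CPM against 24.8, 31.5 and 27.3 CPM. Tcf7l2 was lowest in transgenic mouse 1, as were Enpp6 and Itpr2 but not Bcas1, and highest in transgenic mouse 2, as were Enpp6 and Bcas1 but not Itpr2. The part of these cells in the Tcf7l2 values was not tested. Of 7 endothelial markers 1 was higher and 1 lower in transgenic mice, beside 591 and 764 of all 19087 genes tested. The higher was the tight junction gene Cldn5 (log2 fold change 0.66, adjusted p = 0.0430 with edgeR), also the highest in level of the list. The lower was the transporter gene Slco1c1 (-0.30, adjusted p = 0.0301 with edgeR). Each of these calls held in 2 of the 6 fits with 1 mouse left out, with adjusted p up to 0.147 and 0.146. With GC offsets neither was called, with log2 fold changes of 0.54 for Cldn5 and -0.16 for Slco1c1 and adjusted p of 0.106 and 0.228. The summed endothelial level was 58.8, 58.2 and 63.1 FPKM in wild-type and 58.5, 78.4 and 69.9 FPKM in transgenic mice, and its part in the Lef1 values was not tested.

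Rgs16 encodes a protein that speeds the shut-off of Gi and Gq signalling in thalamic and other neurons. It had 2.88, 2.70 and 2.89 FPKM in wild-type mice, the narrowest spread of the 9 genes there, and 2.84, 3.18 and 3.65 FPKM in transgenic mice. Transgenic mouse 1 lay within the wild-type range and the other two were above it. With edgeR's test the log2 fold change was 0.19 with a standard error of 0.11, an interval of 2 standard errors from -0.03 to 0.42 and an adjusted p of 0.312. Of 9 related R4 family genes 6 were tested and 0 were called. Rgs4 had the highest level of these, 58.9 ± 13.1 FPKM in wild-type and 50.6 ± 6.41 FPKM in transgenic mice (SD, n = 3 each).

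Ramp3 encodes an accessory protein that sets which peptide of the calcitonin family a receptor binds. It had the fewest counts of the 9 genes, 113, 69 and 70 in wild-type and 114, 70 and 85 in transgenic libraries. Its FPKM were 1.56, 1.19 and 1.35 in wild-type and 1.76, 1.33 and 1.65 in transgenic mice. The groups overlapped, and the log2 fold change was 0.21 with a standard error of 0.18 and an interval of 2 standard errors from -0.14 to 0.56 (adjusted p = 0.474 with edgeR). Its relative Ramp1, with 15.3 ± 1.53 FPKM in wild-type and 19.2 ± 0.760 FPKM in transgenic mice (SD, n = 3 each), was the highest in level of 4 family members and receptors. It was higher in transgenic mice with a log2 fold change of 0.34, a standard error of 0.07 and an adjusted p of 0.0430 in edgeR's test. With 1 mouse left out its adjusted p was 0.0334 to 0.133, and the call held in 1 of 6 such fits. With GC offsets the log2 fold change was 0.28 and the adjusted p 0.0839. Ramp2, Calcrl and Calcr were not called.

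Synpo2 encodes an actin-binding protein of muscle that is also used by thalamic neurons. It had 0.890, 0.881 and 0.975 FPKM in wild-type and 0.714, 1.00 and 1.06 FPKM in transgenic mice. The wild-type values lay inside the transgenic range. Its log2 fold change was 0.02 with a standard error of 0.14 and an interval of 2 standard errors from -0.27 to 0.30 (adjusted p = 0.958 with edgeR). Its relative Synpo, a gene of dendritic spines, was higher in transgenic mice, with 15.6 ± 0.379 against 19.6 ± 1.65 FPKM (SD, n = 3 each), a log2 fold change of 0.34, a standard error of 0.07 and an adjusted p of 0.0339 in edgeR's test. With 1 mouse left out the adjusted p was 0.0254 to 0.137, and with GC offsets it was 0.0916 at a log2 fold change of 0.24. Genes of mural cells, which use Synpo2 in vessel walls, were not called (0 of 7), and their sum was 84.4, 59.8 and 89.2 FPKM in wild-type and 49.7, 105 and 82.9 FPKM in transgenic mice. Vtn was the highest in level of these. Both Synpo2 and the mural sum were lowest in transgenic mouse 1, and the part of mural cells in the Synpo2 values was not tested.

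Further markers of thalamus and habenula were read from lists of their own. Of 11 other thalamus genes 10 were tested and 1 was lower in transgenic mice, beside 764 of all 19087 genes tested. This was Plcb4, a phospholipase of thalamic neurons, with 3.91, 3.88 and 3.41 FPKM against 2.66, 2.49 and 3.09 FPKM. Its log2 fold change was -0.44 with a standard error of 0.09 and an adjusted p of 0.0390 in edgeR's test, and the call held in 1 of 6 fits with 1 mouse left out (adjusted p 0.0394 to 0.166). With GC offsets the log2 fold change was -0.33 and the adjusted p 0.106. Of the 10 genes 6 had negative and 4 positive estimates, with a median of -0.08. Without transgenic mouse 2 the median of the list was 0.02. The filter was run anew in that fit, so the genes tested need not be the same 10. Ptpn3, a tyrosine phosphatase gene, was the highest in level, with 11.1 ± 1.10 FPKM in wild-type and 10.5 ± 1.08 FPKM in transgenic mice (SD, n = 3 each). Gbx2, which specifies the thalamus in the embryo, had 3 to 18 counts per library and was not tested. The summed level of the list was 43.9, 41.9 and 39.1 FPKM in wild-type and 40.3, 37.9 and 39.9 FPKM in transgenic mice, overlapping between genotypes. This sum is weighted towards Ptpn3, Cacna1g and Ntng1, the genes with the highest levels. Low genes such as Gbx2, Shox2, Slitrk6 and Tnnt1 add little to it, and Gbx2, Shox2 and Tnnt1 were each highest in transgenic mouse 3.

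Of the 5 habenula genes 0 were called, and their median log2 fold change was -1.76 with all mice and 0.04 without wild-type mouse 2. The 6 striatum genes behaved likewise, with 0 called and a median of -1.35 with all mice and 0.03 without that mouse. Tac2, a neuropeptide gene, and Drd1, a dopamine receptor gene, were the highest in level of the habenula and striatum lists. None of 5 neocortex genes, led in level by Fezf2, was called, and their median log2 fold change was 0.00252.

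The 9 genes did not share one order of mice. Wild-type mouse 1 was the highest library for 3 of them (Prkcd, Slc17a6 and Zic1), transgenic mouse 2 for Tcf7l2 and Lef1, transgenic mouse 3 for Rgs16 and Synpo2, wild-type mouse 2 for Zic4 and transgenic mouse 1 for Ramp3. Transgenic mouse 1 was the lowest library for 5 of the 9. The library that stood apart in habenula and striatum genes was thus the highest in 1 of the 9. The summed level of the 9 genes was 33.8, 31.1 and 20.4 FPKM in wild-type and 17.9, 19.4 and 23.0 FPKM in transgenic mice. The sum is weighted towards Zic1 and Prkcd, the genes with the highest levels.

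As a description of what else varied with the 9 genes, the mean of their standardised log2 CPM was set against 15701 other genes with a mean of at least 1 CPM over the 6 libraries. The highest Pearson correlations were 0.993 for Gm10226, 0.988 for C130071C03Rik, 0.987 for Thoc1, and 0.986 for both Amd2 and Gm37499. These are the 5 highest of 15701 values over only 6 points, and 113 genes had a correlation above 0.9. The mean of the 9 genes was lowest in transgenic mouse 1 and highest in transgenic mouse 3, and the points share the library and its depth.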

How the data were processed

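RNA from 6 hippocampi, 3 wild-type and 3 transgenic, was sequenced as pairs. Per the labels and file headers, the authors trimmed reads with Trimmomatic, aligned them to mm10 with STAR and counted fragments on the Ensembl 95 annotation with featureCounts 1.5.0-p1, requiring a mapping quality of at least 3 and strand setting 2. The authors deposited raw counts per gene, without normalization, with gene lengths.

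Low genes were removed with filterByExpr of edgeR (minimum count 10) and 19087 remained. After TMM scaling (factors 0.992 to 1.00), a quasi-likelihood model of edgeR with genotype as its only term was fitted to all 6 libraries. Benjamini-Hochberg adjustment ran over all genes tested, at a threshold of 0.05. FPKM used deposited lengths and raw totals, and CPM used scaled totals. The study compared genotypes with NOISeq, which was not used here. Symbols were found for 54723 of 54838 genes.

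The 9 genes and all lists were chosen with earlier results of these data known. Named genes were the 9, in each list those past the threshold (at most 4, smallest p first) and the highest in level, and the 5 most alike in pattern. Some genes are not reported here. Any other named gene was picked with its values known. Fits were tested on simulated data. Versions were DESeq2 1.42.0, limma 3.58.1, edgeR 4.0.16 and R 4.3.3. Alternatives were other scalings, filters, tests, offsets for GC content and length, a replicate block and each mouse left out. Libraries came from individual hippocampi, read here as 1 per mouse, and p-values measure the spread between the 3 libraries per genotype.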

Additional observations from a re-analysis of the deposited data

How the results depend on the processing

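Over all genes, 1355 were called by edgeR's quasi-likelihood test, and 2230 by DESeq2's Wald test, 738 with the replicate block, 407 with GC offsets, 462 with GC offsets and the block together, 778 with length offsets and 77 to 1149 with 1 mouse left out. The scalings, the filters and limma-voom kept the count within 1.5 times. Without a filter on low counts 1503 of 33581 genes were called. Of the 9 genes 0 were called, but 3 without a filter on low counts (Zic1, Zic4 and Slc17a6, adjusted p 0.0189, 0.0128 and 0.0352), 2 with DESeq2's Wald test (Zic4 and Slc17a6, adjusted p 0.00271 and 0.0178), and 0 to 1 with 1 mouse left out, where Prkcd was called without wild-type mouse 3. Of the thalamus, habenula, septum, striatum and neocortex genes 2 were called (Plcb4 and Ngfr), against 5 with DESeq2's Wald test, 0 with the block, 1 with GC offsets alone or with the block, 1 with length offsets and 0 to 1 with 1 mouse left out. In the order of the means over both genotypes, 2 of the 9 genes had the same place by CPM, without gene length, as by FPKM. The causes were not tested.

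Small estimates turned in sign. With 1 mouse left out Tcf7l2 ranged from -0.0848 to 0.251 (negative without wild-type mouse 1 or transgenic mouse 2) and Synpo2 from -0.0715 to 0.171 (negative without transgenic mouse 2 or 3). Synpo2 was also negative with limma-voom (-0.0165) and with the replicate block (-0.0013). The fold changes of Zic1, Zic4, Slc17a6 and Prkcd stayed negative throughout, from -1.25 to -0.75, -1.10 to -0.70, -0.76 to -0.41 and -0.87 to -0.24 with 1 mouse left out.

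Nothing in the sources used here says whether mice that share a replicate number share anything else. The correlations of their deviations from the group means were 0.399, -0.357 and 0.388 over 11191 genes. Wild-type mouse 2 correlated best with transgenic mouse 1 (0.400), and the highest value was that of wild-type mouse 3 with transgenic mouse 2 (0.536). Deviations from a mean of 3 mice depend on each other, so these values cannot decide whether the mice were handled in pairs. Among the 9 genes the block called 0, as did the fit without it.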
